A study of Mus musculus with 6 samples.

Results

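The number 15 libraries were 1 WT and 1 UtyGT library of nuclear RNA from cardiomyocyte-sorted nuclei, 2 of the 6 libraries in the series. They were set against the other 4, which carried the numbers 11 and 31 in each strain. The pair was chosen from the measured values themselves. The first principal component over 16202 genes held 73.3% of the variance and gave loadings of 0.48 to WT 15 and 0.62 to UtyGT 15, with −0.44 to −0.04 in the other 4. Differences between number 15 and the other numbers are therefore given as a description, without a test. Only the comparison of the number 15 difference between the strains was tested. It is a separate contrast from the one that chose the pair. Likeness between the strains was part of that choice, however, so the test is not free of it.

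UtyGT mice, UtyGt(XS0378)Wtsi, carry a gene trap in an intron of the Y-linked gene Uty. WT mice were their isogenic C57BL/6.Y<129P2> counterparts, so both strains shared the C57BL/6 background with a Y chromosome of 129P2 origin. All mice were adult, no treatment was given, and nuclei were released from frozen left ventricles. Nuclei bound by an antibody to PCM1 were sorted by flow cytometry, at 150000 per library. The work was spread over several days in each strain, but the labels do not say which number belongs to which day or how many animals gave a library. What the number stands for therefore cannot be told apart from the difference it carries, and each strain had 1 library of number 15. Because libraries may not be separate animals, the spread between them may be technical.

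PCM1 is a protein of the centriole region that gathers around the nucleus in differentiated cardiomyocytes, so that sorting on it enriches their nuclei over those of fibroblasts, endothelial cells, mural cells and leukocytes. The main leukocytes of a healthy ventricle are resident macrophages, which lie between myocytes, depend on the receptor Csf1r and take up debris. They carry scavenger receptors, complement component C1q and, in part, MHC class II. Cardiomyocytes burn mainly fatty acids, and the fatty acid sensing receptor PPARα drives genes of that use such as Pdk4, Angptl4 and Ucp3.

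The libraries held between 18204752 and 23252887 gene reads, and WT 15 and UtyGT 15 were the deepest. Values below are normalised counts, which are gene reads divided by 1 size factor per library, and log2 differences are on log2(normalised count + 1). The trapped gene matched the labels in number 15 as in the others. Uty had 1212 in WT 11, 1314 in WT 31, 22.1 in UtyGT 11 and 19.9 in UtyGT 31, against 1332 in WT 15 and 14.1 in UtyGT 15. Ventricular markers were present throughout, and none of the 14 T and NK lymphocyte markers reached a mean of 10. Over all genes that reached it, 208 in WT 15 and 304 in UtyGT 15 had at most 3 reads, against 15 to 25 in the other libraries.

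Number 15 differed from the other numbers almost wholly by genes that were lower. Of 16202 genes, 1023 (6.31%) had a log2 difference of −1 or less in each strain, and 20 (0.123%) had one of 1 or more in each strain. The median log2 difference over the 1023 was −2.93, a median level of 11.4% of the mean in numbers 11 and 31, and 487 of them were at −3 or less. Number 11 against number 31, judged by the same rule, gave 20 genes higher in number 11 (0.123%) and 8 lower (0.0494%). The median gene hardly moved, with a log2 difference of 0.02. With quantile scaling the split was 122 higher and 845 lower, so that 12.6% of the genes past the rule were higher against 1.92% with the authors' size factors.

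**Figure D1:**
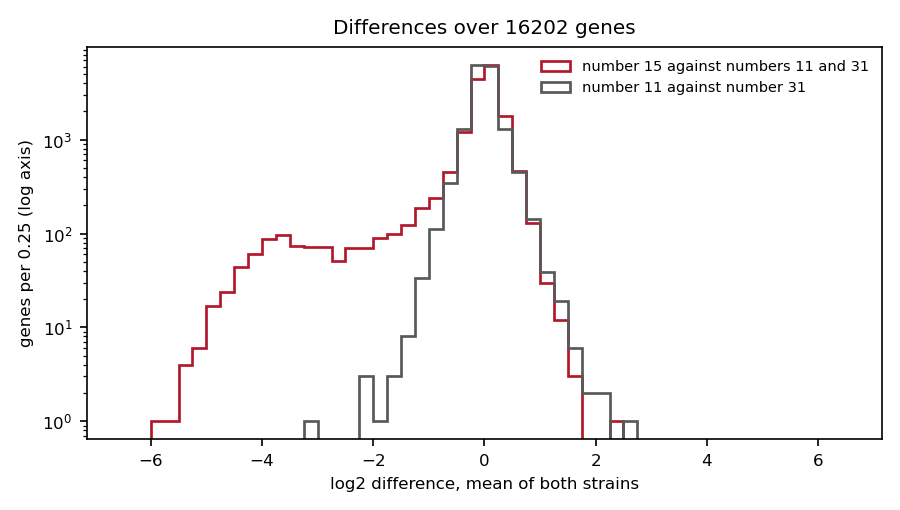
Log2 differences of normalised counts (horizontal axis, mean of both strains) against the number of genes per step of 0.25 (vertical log axis), for number 15 against numbers 11 and 31 (red) and for number 11 against number 31 (grey). Both centre on 0, and the red outline has a long shoulder on the low side, which holds most of the 1023 lower genes and has no counterpart on the high side.

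Library by library, the 1023 genes held 1.52% of the normalised counts of WT 11, 1.18% of WT 31, 0.608% of UtyGT 11 and 1.18% of UtyGT 31. They held 0.202% in WT 15 and 0.152% in UtyGT 15. UtyGT 11 thus lay between the number 15 libraries and the other 3, and it was the lowest of the 4 comparison libraries for 948 of the 1023 genes. Without UtyGT 11 the counts were 1182 lower and 27 higher. Of the 1023, 933 (91.2%) were protein coding, against 77.1% of all genes tested. The threshold fell in the middle of a continuum. Mast3, just inside, had a log2 difference of −1.001 in its weaker strain, and L1cam, just outside, had one of −0.999. On the high side the corresponding values were 1.003 for Gm28720 and 0.995 for H2-Ke6.

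Macrophage genes were far lower. All 18 measured markers of 18 were lower in number 15 by the rule, with both number 15 libraries below the other 4 for each of them, and their median log2 difference was −3.75 (−3.59 in WT and −4.05 in UtyGT). For all genes, 15% had both number 15 libraries below the other 4. Csf1r (ENSMUSG00000024621, GRCm38, plus strand of chromosome 18, 61100598 to 61132149), the receptor that macrophages need to live, had 4181 in WT 11, 3109 in WT 31, 1495 in UtyGT 11 and 3118 in UtyGT 31, against 247 in WT 15 and 131 in UtyGT 15. Its level in number 15 was 6.34% of that in the other numbers, a log2 difference of −3.95.

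Mrc1 and F13a1, markers of resident, matrix-dwelling macrophages, followed the same order of libraries as Csf1r. The mannose receptor gene Mrc1 had 4325 in WT 11, 2797 in WT 31, 1345 in UtyGT 11 and 3572 in UtyGT 31, against 254 in WT 15 and 126 in UtyGT 15. F13a1, for the factor XIII A subunit, had 4904 in WT 11, 3160.4 in WT 31, 1500.2 in UtyGT 11 and 3958 in UtyGT 31, against 280.1 in WT 15 and 138 in UtyGT 15. In both genes UtyGT 15 was at about the same share of the other UtyGT libraries as WT 15 of the other WT libraries, with log2 differences of −3.77 and −4.11 for Mrc1 and −3.81 and −4.13 for F13a1. The haemoglobin scavenger receptor gene Cd163 had the lowest log2 difference of the list, −4.45, and Lyve1, Folr2 and Timd4, which mark long-lived resident macrophages, were at −4.09, −3.53 and −3.71. Lyz2, for the lysozyme of myeloid cells, had 4917 in WT 11, 3638 in WT 31, 1857 in UtyGT 11 and 3112 in UtyGT 31, against 439.6 in WT 15 and 175 in UtyGT 15. In libraries of pooled nuclei, fewer nuclei of a type and less RNA per nucleus cannot be told apart.

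Promoters of 3 of these genes are shown because macrophage genes share the transcription factor PU.1, whose binding core is GAGGAA. Each sequence is the RefSeq window of GRCm38.p6 from 250 bases before to 50 bases after the gene's start, read 5′ to 3′ on the gene's own strand, with GAGGAA or its reverse complement TTCCTC in capitals. The windows are chr13:37050195-37050494 (minus strand) for F13a1, chr4:136892865-136893164 (minus strand) for C1qc and chr11:69666121-69666420 (minus strand) for Cd68. RefSeq gives F13a1 a second start, whose window (chr13:37049164-37049463) held 1 match against 2 in the window shown.
F13a1: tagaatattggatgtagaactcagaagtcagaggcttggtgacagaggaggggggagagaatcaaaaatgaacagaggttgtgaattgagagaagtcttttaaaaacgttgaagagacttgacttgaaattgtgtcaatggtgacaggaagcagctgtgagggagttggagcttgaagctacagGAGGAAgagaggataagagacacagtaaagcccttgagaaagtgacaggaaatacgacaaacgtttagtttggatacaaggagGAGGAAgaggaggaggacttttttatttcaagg
C1qc: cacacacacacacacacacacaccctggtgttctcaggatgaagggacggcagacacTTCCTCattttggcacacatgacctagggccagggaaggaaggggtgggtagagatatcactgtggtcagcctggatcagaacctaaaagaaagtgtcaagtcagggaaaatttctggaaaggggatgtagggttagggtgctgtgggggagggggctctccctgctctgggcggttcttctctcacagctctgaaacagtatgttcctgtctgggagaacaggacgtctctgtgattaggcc
Cd68: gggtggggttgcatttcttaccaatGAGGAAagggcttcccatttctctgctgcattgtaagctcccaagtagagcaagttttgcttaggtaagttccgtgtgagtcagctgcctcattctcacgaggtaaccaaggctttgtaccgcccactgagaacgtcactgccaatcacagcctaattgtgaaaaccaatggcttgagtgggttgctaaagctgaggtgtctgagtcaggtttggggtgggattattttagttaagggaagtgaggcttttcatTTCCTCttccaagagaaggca
GAGGAA was found on either strand in 7 of the 13 macrophage markers and 6 of the 10 pan-leukocyte markers that have a window, counting a gene if any of its windows held it, against 31.3% of 27025 genes and 7 of 20 sarcomere genes. The longer GAGGAAGT, which contains it, was in 2 of 13 and 3 of 10, against 3.69% of genes and 0 of 20 sarcomere genes. A match is a run of letters, not a bound site.

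Pan-leukocyte genes differed by a similar size to the macrophage list. All 12 were lower in number 15, with a median of −3.77. Ptprc, which encodes the leukocyte surface phosphatase CD45 (ENSMUSG00000026395, minus strand of chromosome 1, 138062861 to 138175708), had 1042 in WT 11, 747 in WT 31, 438 in UtyGT 11 and 766 in UtyGT 31, against 69.1 in WT 15 and 26.3 in UtyGT 15. Dock2, which drives leukocyte migration, had 1091 in WT 11, 819 in WT 31, 399 in UtyGT 11 and 888 in UtyGT 31, against 41.5 in WT 15 and 33.8 in UtyGT 15. The lysosomal Laptm5 and the inositol phosphatase gene Inpp5d were at 8.74% and 6.15% of the other numbers. The lowest was Vav1, a signalling exchange factor, at −4.80, and the weakest was the Fc receptor chain Fcer1g at −1.71.

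Markers that divide leukocytes into kinds were thin in these nuclei. Of the monocyte and neutrophil list, 3 of 10 genes were measured and all were lower, with Ccr2, the receptor of recruited monocytes, at −3.99 (71.5 to 199 in the other 4, 14.7 in WT 15 and 3.76 in UtyGT 15). The neutrophil genes S100a8 and Retnlg had 0 reads in all 6 libraries. Of 5 measured dendritic cell genes 4 were lower, among them Siglech (−3.70) and Batf3 (−3.42), while Zbtb46, which endothelial cells also use, was at −0.10. Ighm and Bank1, 2 of 3 measured B lymphocyte genes, were at −3.69 and −3.78, but Cd79a and Ms4a1, which mark the lineage, had normalised counts of at most 3.14 in every library. The mast cell receptor gene Kit was at −1.03, short of the rule in WT (−0.93).

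**Figure D2:**
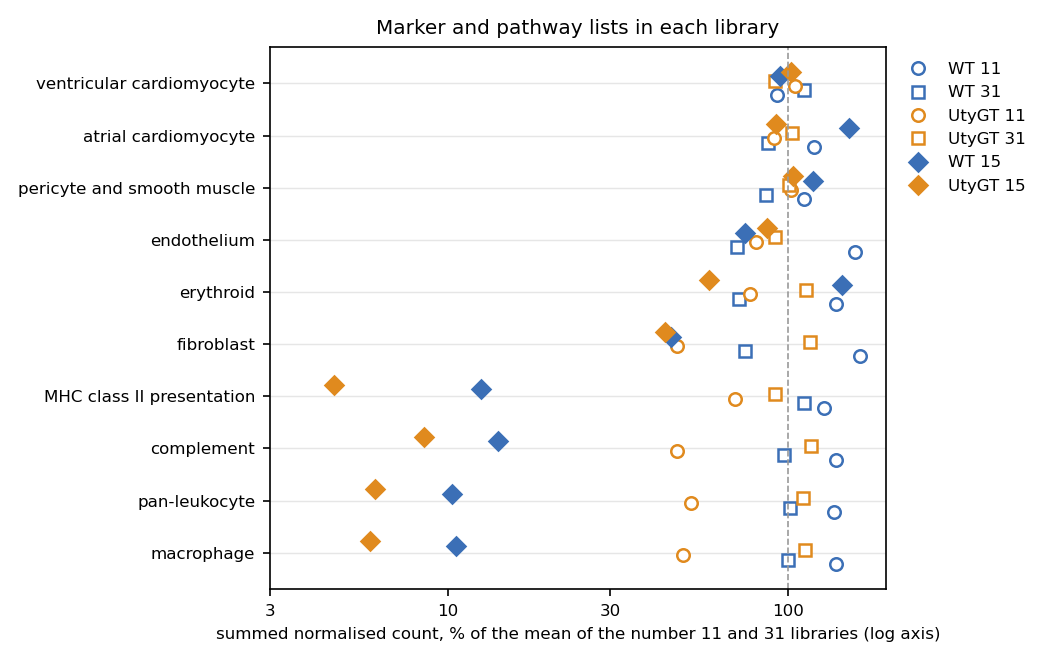
Summed normalised count of 10 marker or pathway lists in each of the 6 libraries, as a percentage of the mean of the 4 libraries of numbers 11 and 31 (log axis, dashed line at 100%). Filled diamonds are the number 15 libraries, open symbols the others, blue WT and orange UtyGT. The macrophage list stood at 10.6% in WT 15 and 5.9% in UtyGT 15, and at 49.1% to 138% in the other 4, whereas the ventricular list stayed between 91.5% and 111% in all 6.

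The antigen presentation genes of class II were lower as a whole. All 8 measured genes of 11 passed the rule, with a median of −3.61. Cd74, the invariant chain (ENSMUSG00000024610, plus strand of chromosome 18, 60803848 to 60812652), had 5155 in WT 11, 4374 in WT 31, 2807 in UtyGT 11 and 3668 in UtyGT 31, against 534 in WT 15 and 180.4 in UtyGT 15. H2-Ab1, for a class II β chain, had 2469 in WT 11, 2283 in WT 31, 1452 in UtyGT 11 and 1813 in UtyGT 31, against 204 in WT 15 and 78.9 in UtyGT 15. Their master regulator Ciita was at 9.04% of the other numbers, and UtyGT 11 lay nearer to the other comparison libraries here than for the macrophage markers (239 to 390.1 over the 4).

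Class I genes, which most nucleated cells express, were lower in part. Of 10 genes 7 passed the rule, with a median of −1.86. The heavy chain gene H2-D1 had 2089 in WT 11, 1582 in WT 31, 1129.9 in UtyGT 11 and 1824 in UtyGT 31, against 295 in WT 15 and 194 in UtyGT 15, whereas H2-K1 retained 35.0% of the other numbers. B2m, for the shared light chain, was at 23.2%. Nlrc5, the activator of class I genes, was at −2.49. Of the peptide loading genes Tap1 passed the rule, at −1.94, Tapbp was at −0.23 with both number 15 libraries below the other 4, and Calr and Tap2 were at 0.04 and −0.02.

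Complement and chemokine genes were lower in most members. The C1q genes C1qa, C1qb and C1qc, made by macrophages, were at 6.92%, 7.05% and 6.00% of the other numbers, and the anaphylatoxin receptor genes C3ar1 and C5ar1 at 6.58% and 7.10%. Of 13 measured complement genes 10 passed the rule (median −3.01). Those that fibroblasts also make were less low, with C3 at −1.65, Serping1 at −1.61 and C1s1 at −0.79. Of 14 measured chemokine genes 10 passed (median −3.33), with the macrophage chemokines Ccl6, Ccl9 and Pf4 at −4.51, −4.16 and −3.45. Ackr3, Cxcl12 and Cx3cl1, used by stromal and endothelial cells, were at 0.05, −0.11 and 0.27.

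Of the measured phagocytic and Fc receptor genes 11 of 14 passed (median −3.45). Stab1, a scavenger receptor of tissue macrophages, had 7981 in WT 11, 6185 in WT 31, 2699 in UtyGT 11 and 6522 in UtyGT 31, against 393 in WT 15 and 225 in UtyGT 15. Siglec1 and the Fc receptor genes Fcgr2b and Fcgr3 were at −4.27, −4.23 and −3.48. Cd36, which also imports fatty acids into cardiomyocytes, was at 0.23, and Tlr4 was at −0.12.

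Interferon-response genes were lower in part, 11 of 18 by the rule, with a median of −1.42. Oas2, a sensor of viral double-stranded RNA, was at 195 to 718 in the other 4 libraries and at 3.12% of their mean in number 15. Oas1a and Oasl2 were also far down, at −4.20 and −3.55. Genes of the signalling complex itself differed less, with Stat2 at −0.69 and Irf9 at −0.36. The lysosome list had a median of −0.08 and 1 of 22 genes past the rule, the cathepsin gene Ctsz (−2.06), against 6.31% of all genes.

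Where the mean over the 6 libraries was 50 or more, the 12 lowest log2 differences ran from −5.81 to −4.92. The lowest was Adam33, a membrane metalloprotease gene, with 189 in WT 11, 153 in WT 31, 63.1 in UtyGT 11 and 157 in UtyGT 31, against 1.84 in WT 15 and 0.939 in UtyGT 15. Pik3r5, a regulatory subunit of the leukocyte PI3-kinase, had 165 in WT 11, 92.9 in WT 31, 42.1 in UtyGT 11 and 123 in UtyGT 31, against 4.61 in WT 15 and 0 in UtyGT 15. A value of 0 allows up to 3 reads in a library, which is 2.82 normalised counts in UtyGT 15, so that the 0 of Pik3r5 stands for a value up to that bound. The others were Lilr4b, A130071D04Rik, Naip6, Hmgb1-ps8, Kif23, Lilrb4a, Ms4a6b, Adgrg6, F630028O10Rik and Nlrp1b, several of which belong to innate immune receptor families. Lilr4b and Lilrb4a are near-identical neighbours, Naip6 has close paralogs, Hmgb1-ps8 is a pseudogene, F630028O10Rik is antisense and A130071D04Rik lies within Ptprc on the same strand, so that the split of reads between them and related genes is uncertain. For all 12 the highest number 15 value was 10.1 normalised counts.

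Genes of dividing cells were lower in part. Of 22 measured cell cycle genes 8 passed the rule, with a median of −1.05. Mki67, the proliferation marker, was at 203 to 620 in the other 4 libraries and at 10.1% of their mean in number 15. The topoisomerase gene Top2a, the kinetochore motor gene Cenpe and the mitotic kinase gene Aurkb were at −3.16, −2.32 and −3.27. The kinase genes Cdk4 and Cdk6, which quiescent cells also express, were at −0.05 and 0.26, and the cyclin genes Ccnd2 and Ccnd3 at −0.22 and −0.44.

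Fibroblast genes differed less and overlapped with UtyGT 11. Of 16 measured markers 15 were below 0, against 46.8% of all genes. Only 2 passed the rule, Gsn and Dpep1, against 6.31% of all genes on the low side. The list median was −1.17 (−1.61 in WT and −0.79 in UtyGT). Col1a1, a chain of type I collagen (ENSMUSG00000001506, plus strand of chromosome 11, 94936224 to 94953042), had 796 in WT 11, 265 in WT 31, 132 in UtyGT 11 and 489 in UtyGT 31, against 125 in WT 15 and 169 in UtyGT 15. UtyGT 11 was thus between the number 15 libraries, and Pdgfra, the receptor that marks cardiac fibroblasts, had the same order (217 in WT 11, 103 in WT 31, 67.3 in UtyGT 11 and 135 in UtyGT 31, against 48.8 in WT 15 and 68.6 in UtyGT 15). For Gsn, the actin-severing gelsolin, both number 15 libraries were below the other 4, with 4512 in WT 11, 2129 in WT 31, 1195 in UtyGT 11 and 3242 in UtyGT 31, against 927 in WT 15 and 922 in UtyGT 15. Both number 15 libraries lay below the other 4 for 7 of the 16.

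Matrix genes followed the fibroblast markers, apart from a few that were far lower. Of all genes, 6.31% passed the rule on the low side. The collagen chains had a median of −0.91 (−1.51 in WT and −0.39 in UtyGT), with 1 of 20 past the rule, Col14a1 at −2.33. Their median log2 difference of WT 11 against WT 31 was 1.16, and that of UtyGT 11 against UtyGT 31 was −0.98. Of 22 measured non-collagen matrix genes 4 passed, Fn1 (−2.64), Timp2 (−1.96), Mmp14 (−1.38) and Thbs1 (−1.11), of which the fibronectin gene Fn1 had 751 in WT 11, 484 in WT 31, 255 in UtyGT 11 and 421 in UtyGT 31, against 94.9 in WT 15 and 52.6 in UtyGT 15. The basement membrane list had a median of −0.05, and Nid2, for a nidogen that links laminin to collagen, was its 1 gene past the rule (−1.40).

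Vascular genes differed little. No endothelial marker of 16 passed the rule, although 14 were below 0, and both number 15 libraries lay below the other 4 for 1 of them. Their median was −0.19 (−0.43 in WT and 0.13 in UtyGT), or −0.00 with quantile scaling. The endothelial cadherin gene Cdh5 had 342 in WT 11, 138 in WT 31, 211 in UtyGT 11 and 184 in UtyGT 31, against 166 in WT 15 and 187 in UtyGT 15. The spread came mainly from WT 11, the highest library for 15 of 16 markers. Pericyte and smooth muscle genes had 0 of 11 past the rule and a median of −0.09, which was 0.10 with quantile scaling, with Pdgfrb at −0.40 and Acta2 at 0.07. The endocardial median was −0.19 over 4 genes and the lymphatic one −0.50 over 4.

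In the growth factor signalling lists a few members passed the rule on the low side, which 6.31% of all genes did. Counts this small are a description only. Of 24 measured TGF-β and BMP genes the ligand gene Tgfb1 (−1.58) and the receptor gene Acvrl1 (−1.99) passed, and of 21 measured VEGF, angiopoietin and Notch genes the receptor genes Notch1 (−2.28) and Nrp2 (−2.13). The cardiomyocyte adrenergic receptor gene Adrb1 was at 0.22. Of 17 measured integrin and adhesion genes 14 were below 0 and 6 passed, with a median of −0.26. The leukocyte chains Itgb2, Itga4 and Itgam were at −3.92, −3.68 and −3.15, and the broadly used Itgb1 at 0.10.

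Most of the lower genes were in no list, since 126 of the 1023 belonged to one. The most abundant of the rest was Apoe, the apolipoprotein that macrophages secrete, with 14886 in WT 11, 12137 in WT 31, 5149 in UtyGT 11 and 9701 in UtyGT 31, against 1618 in WT 15 and 919 in UtyGT 15. Next came Actb, the cytoplasmic actin that non-muscle cells use, at 39.6% of the other numbers, and the endocytic receptor gene Lrp1 at 16.9%. Dab2, an endocytic adaptor, and Maf, a macrophage transcription factor gene, were at −3.76 and −2.93. Vim, the intermediate filament of non-muscle cells, was at −2.38. These genes were listed by mean normalised count alone.

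Taken by list, cardiomyocyte genes were level in number 15. None of the 12 ventricular markers and none of the 24 sarcomere genes passed the rule in either direction, with medians of 0.07 and 0.04 (the latter −0.00 with quantile scaling). Myl2, the ventricular myosin light chain, had 25418 in WT 11, 23646 in WT 31, 26847 in UtyGT 11 and 24576 in UtyGT 31, against 27252 in WT 15 and 25502 in UtyGT 15. Myh6, the main myosin heavy chain of adult mouse heart, had 486862 in WT 11, 516557 in WT 31, 495019 in UtyGT 11 and 441315 in UtyGT 31, against 372939 in WT 15 and 525174 in UtyGT 15, so that WT 15 was the lowest of all and UtyGT 15 the highest. Calcium handling (0 of 21 past the rule, median 0.07), intercalated disc (0 of 18, 0.05), dystrophin complex (0 of 18, 0.10) and cardiac transcription factors (0 of 18, 0.08) were as close to 0. The hypertrophy and wall stress list had 0 of 14 past the rule and a median of −0.05. Both number 15 libraries lay below the other 4 for 3 of its genes and above them for 0. The 3 included Nppb, at 59.3% of the other numbers (3083 in WT 15 and 3186 in UtyGT 15, against 4372 to 6000), and Xirp2, at 81.8%. Of 22 channel genes 20 were above 0, with a median of 0.18, and both number 15 libraries were above the other 4 for 7 of them.

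**Figure D3:**
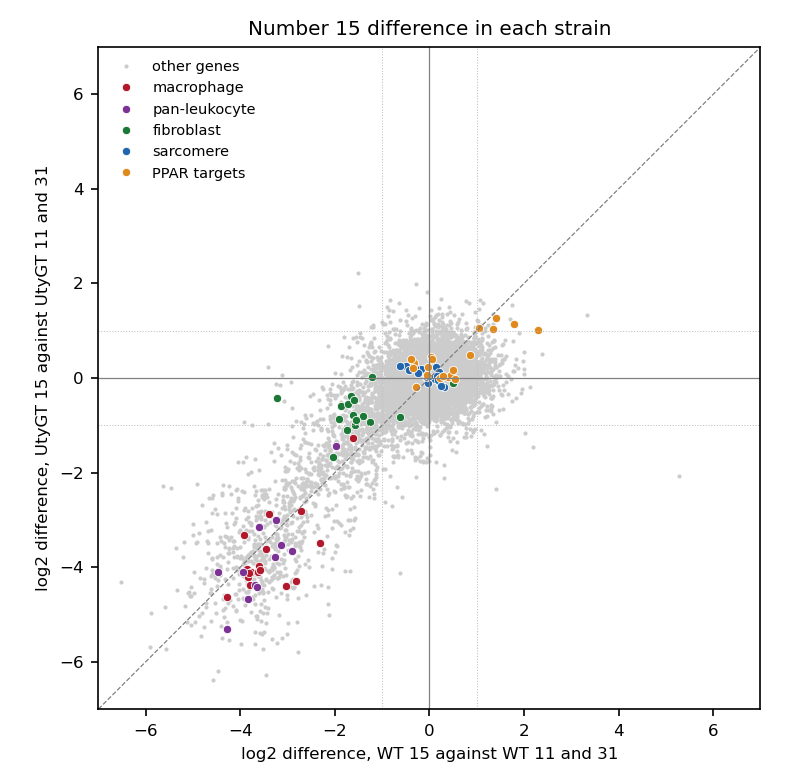
Log2 difference of number 15 against numbers 11 and 31 in WT (horizontal axis) and in UtyGT (vertical axis), 1 point per gene for 16202 genes, with 5 lists in colour. Dotted lines mark −1 and 1, and the dashed line marks equal differences. Macrophage (red) and pan-leukocyte (purple) genes lie around the dashed line, all below −1 in both strains, most fibroblast genes (green) lie between −1 and −2 in WT and nearer to 0 in UtyGT, sarcomere genes (blue) lie around 0, and 5 PPAR targets (orange) lie past 1 in both strains.

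The higher genes were few, and those of good abundance were metabolic. Of the 20, 5 had a mean of at least 50, and all 5 were PPAR targets, with both number 15 libraries above the other 4 in each. Over all genes 11.5% had both number 15 libraries above the other 4. For genes that pass the rule this is nearly fixed in advance, since it held for 18 of the 20, so it adds no support. Pdk4, the kinase that switches off pyruvate dehydrogenase (ENSMUSG00000019577, minus strand of chromosome 6, 5483351 to 5496309), had 1371 in WT 11, 1488 in WT 31, 1406 in UtyGT 11 and 2365 in UtyGT 31, against 7063 in WT 15 and 3686 in UtyGT 15, a log2 difference of 2.31 in WT and 1.02 in UtyGT. Angptl4, which encodes an inhibitor of lipoprotein lipase, had 100.3 in WT 11, 135 in WT 31, 189 in UtyGT 11 and 169 in UtyGT 31, against 404 in WT 15 and 397 in UtyGT 15. These 2 genes did not overlap between number 15 and the other numbers, and UtyGT 31 was the highest of the 4 for Pdk4. Without UtyGT 11 the difference of Pdk4 in UtyGT was 0.64, short of the rule.

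Thioesterase and uncoupling genes belonged to the same group. Acot1, for a cytosolic acyl-CoA thioesterase, had 48.8 in WT 11, 55.1 in WT 31, 56.8 in UtyGT 11 and 86.8 in UtyGT 31, against 133 in WT 15 and 145 in UtyGT 15, but near-identical thioesterase genes lie beside it, so that its share of reads is uncertain. Ucp3, a mitochondrial carrier of muscle, had 653 in WT 11, 1328 in WT 31, 1005 in UtyGT 11 and 1105 in UtyGT 31, against 1925 in WT 15 and 2206 in UtyGT 15. In these genes too, both number 15 libraries lay above the other 4, which the rule nearly fixes. Against number 31 alone the log2 difference of Ucp3 was 0.77 and that of Acot1 0.99. The highest of the other 4 libraries was WT 31 for Ucp3 and UtyGT 31 for Acot1. Acot1 also fell short of the rule without UtyGT 11 (0.73 in UtyGT), and Ucp3 without WT 11 (0.54 in WT) or without UtyGT 11 (0.996 in UtyGT). The remaining 15 of the 20 had means under 50, among them Trp63 (1.48) and Cdh16 (1.35), and these names were chosen after their values were seen.

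**Figure D4:**
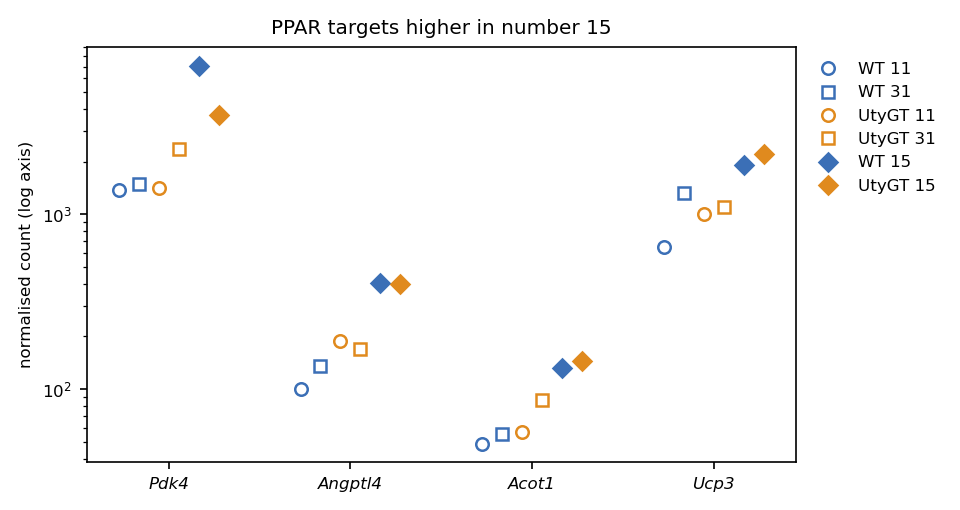
Normalised counts (log axis) of 4 of the 5 more abundant genes (mean of 50 or more) that were higher in number 15 by the rule, in each library (filled diamonds, number 15; open symbols, numbers 11 and 31; blue WT, orange UtyGT). In every gene both diamonds lie above the 4 open symbols, which the rule that chose the genes nearly fixes. The widest gap between strains is in Pdk4 (7063 in WT 15 and 3686 in UtyGT 15).

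The rest of the fatty acid programme was shifted by small amounts. Of 21 PPAR targets 5 passed the rule and the median was 0.23. Ehhadh, a peroxisomal oxidation gene, was next at 0.67 (205 to 248 in the other 4, 402 in WT 15 and 344 in UtyGT 15). Ppara and Ppard, the receptor genes themselves, were at 0.00 and −0.24. The PPAR element AGGTCANAGGTCA was found on either strand in 0 of 16 PPAR target windows and in 0.0481% of all genes, so that its letters are absent from these 300-base windows. All 21 fatty acid oxidation genes were above 0, with a median of 0.23, none past the rule and 12 of 21 with both number 15 libraries above the other 4. Lpl, the lipase that frees fatty acids from lipoproteins, had 60138 in WT 11, 45947 in WT 31, 61139.8 in UtyGT 11 and 72608 in UtyGT 31, against 82989 in WT 15 and 69993 in UtyGT 15.

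Nuclear genes of the respiratory chain and of the tricarboxylic acid cycle had medians above 0 in WT and near 0 in UtyGT, and no gene passed the test of the difference between the strains. All 33 of complexes I and II, all 33 of complexes III, IV and V and all 18 of the cycle were above 0 over both strains. Their medians were 0.27, 0.37 and 0.22 in WT and 0.02, −0.01 and −0.00 in UtyGT. Over all genes 53.2% were above 0. Glycolysis and glycogen genes had a median of 0.09 (0.24 in WT and 0.02 in UtyGT), and the ribosomal protein list had a median of −0.00 over 79 genes. The leukocyte lists were lower in the same 2 libraries, and whether that difference plays a part in these small shifts was not tested.

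**Figure D5:**
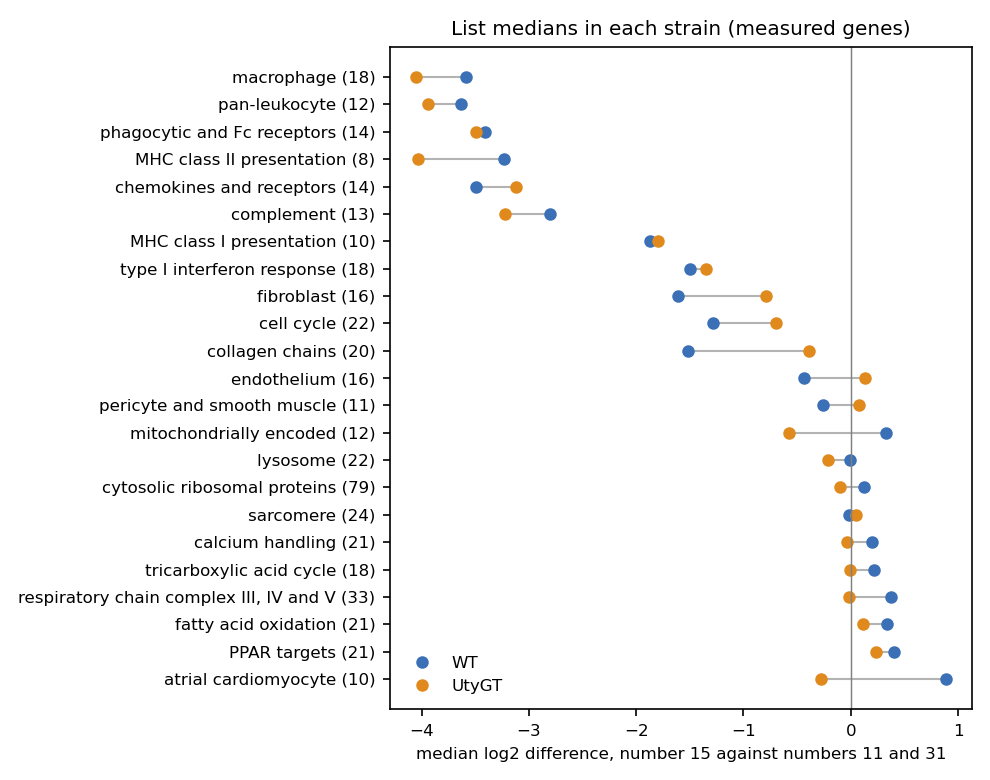
Median log2 difference of number 15 against numbers 11 and 31 (horizontal axis) for 23 lists, with the number of measured genes in brackets (blue WT, orange UtyGT, grey line joining them). The leukocyte lists at the top are far below 0 in both strains. The fibroblast and collagen lists are lower in WT than in UtyGT, but in them numbers 11 and 31 of each strain also lie apart. The atrial, mitochondrially encoded, endothelial and pericyte lists are among those with the strains on opposite sides of 0.

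The pair was chosen because both number 15 libraries stood apart in 1 direction, so likeness between the strains is part of that choice and is given as a description. Across 16202 genes, which are not independent and share libraries, depth and scaling, the log2 differences of WT and UtyGT had a Pearson correlation of 0.80 and a Spearman correlation of 0.33. Taken strain by strain, 1469 genes (9.07%) were at −1 or less in WT and 1175 (7.25%) in UtyGT. WT had 251 genes (1.55%) at 1 or more and UtyGT 115 (0.71%). In 13 genes (0.0802%) 1 strain was at 1 or more and the other at −1 or less.

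The size of the number 15 difference was then compared between the strains, UtyGT minus WT, with limma and 2 residual degrees of freedom. No gene of 16202 passed (0% at an adjusted p of 0.05), while 654 (4.04%) had an unadjusted p under 0.05. edgeR on whole reads gave 0 and DESeq2 gave 3 (0.0185%), F830016B08Rik, Fnip2 and Iigp1. The test could not settle small differences, since its 95% interval reached 0.82 to either side of the estimate in the median gene and 1.80 in the median of the 1023 lower genes. Among these 1023, 41 (4.01%) had an unadjusted p under 0.05, of which 25 were lower still in UtyGT and 16 lower still in WT. The rule that chose the 1023 leaves out genes low in only 1 strain. Interactions within this set therefore do not measure how far the strains agree.

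Class II genes held several of the low unadjusted p values, as did other lists. By limma 6 of 33 genes of complexes III, IV and V and 5 of 22 channel genes had an unadjusted p under 0.05. So did 5 of 19 circadian clock genes and 4 of 12 mitochondrially encoded genes. For Cd74 the log2 difference was −3.15 in WT and −4.15 in UtyGT, an interaction of −0.99 (95% interval −1.59 to −0.40; unadjusted p = 0.00457 by limma across all genes; adjusted p = 1.00). H2-Ab1, H2-Eb1 and H2-Aa had interactions of −0.81, −1.01 and −0.77, so that 4 of 8 measured class II genes were under 0.05 before adjustment and none after it. In the macrophage list 2 of 18 were under 0.05, Adgre1 (−1.49) and Cx3cr1 (−1.17). Csf1r had an interaction of −0.17 (interval −1.36 to 1.02). Over the 1023 lower genes the median interaction was 0.07. UtyGT 15 had the lower level in 749 of them and WT 15 in 260, and UtyGT 11 was the lowest comparison library for 948.

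None of the genes with the lowest unadjusted p values of the interaction passed after adjustment. Fnip2, for a partner of folliculin in nutrient sensing, had 1883 in WT 11, 1681 in WT 31, 2331 in UtyGT 11 and 2279 in UtyGT 31, against 3521 in WT 15 and 2007 in UtyGT 15, an interaction of −1.18 (unadjusted p = 0.000165 by limma; adjusted p = 1.00). Iigp1, an interferon-induced GTPase gene, had 471 in WT 11, 358 in WT 31, 566 in UtyGT 11 and 709 in UtyGT 31, against 1354 in WT 15 and 623 in UtyGT 15, with an interaction of −1.74. For both, WT 15 was above the other 5 libraries. Arid5b, for a chromatin protein, was at 0.92 in WT and −0.36 in UtyGT, an interaction of −1.28.

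In the opposite direction stood Mir208a (2.01), Inka2 (1.11) and Mir1a-1 (1.39). Mir208a lies within an intron of Myh6, and its counts were 178 in WT 11, 159.9 in WT 31, 115 in UtyGT 11 and 136 in UtyGT 31, against 71.0 in WT 15 and 213 in UtyGT 15. Reads at such a microRNA gene in nuclear RNA may come from the unspliced host transcript, so that its value is uncertain as a microRNA level. Myh6 itself had the same order of the number 15 libraries, with −0.43 in WT and 0.17 in UtyGT.

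Atrial and mitochondrially encoded lists lay on opposite sides of 0 in the strains. Atrial genes had a median of 0.88 in WT and −0.28 in UtyGT, and none of 10 passed the rule. The median log2 difference of WT 11 against WT 31 was itself 1.03, and that of UtyGT 11 against UtyGT 31 was −0.87. WT 11 was above WT 15 for Dkk3 (155 against 118), Mybphl (95.6 against 82.0) and Myl7 (137 against 135). Stard10, Gja5 and Myl7 were above 0 in both strains. Nppa, the atrial natriuretic peptide gene, had 1501 in WT 11, 810.4 in WT 31, 530.2 in UtyGT 11 and 925 in UtyGT 31, against 2177 in WT 15 and 581 in UtyGT 15, and Myl4, the atrial light chain, had 469 in WT 11, 206 in WT 31, 107 in UtyGT 11 and 209 in UtyGT 31, against 707 in WT 15 and 114 in UtyGT 15. WT 15 was the highest library for both and UtyGT 15 among the lowest, with an interaction for Nppa of −1.25 (unadjusted p = 0.0493 by limma; adjusted p = 1.00). Bmp10, a ligand of atrial myocytes, had 0 in WT 11, 3.24 in WT 31, 0 in UtyGT 11 and 16.7 in UtyGT 31, against 79.2 in WT 15 and 0 in UtyGT 15. The mitochondrially encoded genes had a median of 0.33 in WT and −0.57 in UtyGT, with mt-Co1, for a subunit of cytochrome oxidase, at 0.54 and −0.37. In this list the median of WT 11 against WT 31 was 0.67, and that of UtyGT 11 against UtyGT 31 was −0.40.

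Gene classes were also compared. Median log2 differences were 0.01 for protein-coding genes, 0.15 for lincRNA genes, 0.20 for antisense genes and 0.20 for snoRNA genes. Of protein-coding genes 7.47% passed the rule on the low side, against 2.84% of lincRNA and 0% of snoRNA genes. The share was higher in the small classes of transcribed unprocessed pseudogenes (5 of 38, 13.2%) and unprocessed pseudogenes (5 of 46, 10.9%), whose reads may be shared with their parent genes. With the genes ordered by genomic span and split into equal groups, 4.39% of the shortest, 7.30% of the middle and 7.27% of the longest genes were lower in number 15. Gm26917, a very abundant RNA annotated as long non-coding, took 18.0% and 17.8% of the reads in WT 15 and UtyGT 15, within the range of 12.1% to 18.5% in the other 4.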

How the data were processed

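Nuclear RNA of 6 libraries was analysed from the authors' deposited table of normalised counts, a signal equal to gene reads divided by 1 size factor per library. Per the submitters' processing notes, bases were called with CASAVA 1.4, reads aligned to GRCm38 with STAR 2.5.1b and counted with featureCounts 1.6.0, and groups tested with DESeq2 1.22.2. The strand setting is not given in the sources used here. The table's fold change and p-value columns hold the authors' own WT and UtyGT comparison and were not used, nor was a second table without number 15.

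In each library 100% of values were whole multiples of 1 read (tolerance 0.0001), so whole reads were recovered for edgeR 4.0.16 and DESeq2 1.42.0. The log2 difference is the limma 3.58.1 (R 4.3.3) coefficient of number 15 with strain as covariate on log2(normalised count + 1), over 16202 of 54232 genes with a mean of at least 10. A gene passed the rule at −1 or less, or 1 or more, in each strain. Lists were described by counts and medians. The interaction of strain with number 15 was tested two-sided with Benjamini-Hochberg adjustment. Library pairs of 1 strain differed beyond sampling noise (chi-square per degree of freedom 15.5 to 48.6), so none were duplicates. Deviations from strain means correlated across genes at 0.25, 0.80 and 0.41 between libraries of number 11, 15 and 31, all over 0.1, so the number was also fitted as a block, although WT 11 correlated at 0.73 with UtyGT 31. A count of 0 allows up to 3 reads, for counting error only.

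The libraries, the members and the gene lists were chosen with earlier results of these data known. Named genes were the 12 highest and 12 lowest with a mean of at least 50 that passed the rule and did not overlap (5 were found on the high side), the 4 most abundant members of each list with defining markers, and the 3 lowest interaction p values in each direction. Other genes were named after their values were seen. A few genes that met these rules are not reported here. Alternatives were the pseudocount, the filter, TMM and quantile scaling, edgeR, DESeq2, the call, the reference number and leaving out each library. Coordinates are from GENCODE M21, which matched 16184 of 16202 genes, and promoters from RefSeq (GRCm38.p6). Scripts were tested on simulated data.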

Additional observations from a re-analysis of the deposited data

Results flagged for a closer look

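In 8 lists the summed level moved in opposite directions in the number 15 library of each strain, beyond both other libraries of that strain. These differences between the strains were not tested, and each rests on 1 library of number 15 per strain. The 8 were picked from all the lists. With so few libraries per strain, order alone can put number 15 at opposite ends in some lists. The share to be had that way was not computed, so the count of 8 is a description only. Mitochondrially encoded genes stood at 127% of the other WT libraries in WT 15 and at 69.0% of the other UtyGT libraries in UtyGT 15, a gap of −58.2 percentage points. The erythroid list, led by the globin genes, stood at 137% and 61.6%, a gap of −75.7 points. Both gaps depended on the WT comparison library, an alternative added after seeing the data. Without WT 31 WT 15 was at 104% in each list, and the gaps were −34.5 points for the mitochondrially encoded and −42.7 points for the erythroid list. Without WT 11 they were −96.0 and −139 points. Both gaps run in the same direction, with WT 15 the higher against its own strain. The intercalated disc list stood at 112% and 95.5% (−16.8 points) and the insulin, FOXO and atrophy list at 112% and 99.3% (−12.4 points).

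In the other 4 lists UtyGT 15 was the higher against its own strain. The abundant structured RNA list stood at 92.3% and 127% (34.8 points), the spliceosome, SR and hnRNP list at 94.6% and 112% (17.6 points), the adipocyte list at 80.9% and 126% (45.4 points) and the Y-linked and X homolog list at 99.3% and 107% (7.69 points). The summed structured RNA level was mostly Rn7sk (91.5% and 129%), with a mean of 116019 against 3635 for Lars2, the next gene. Lars2 went the other way (119% and 73.6%). By median log2 difference that list was above 0 in both strains (0.13 in WT and 0.29 in UtyGT). The adipocyte list had 1 measured gene of 8, Pparg. Without WT 31 its gap was 28.8 points. Leaving out any 1 library of number 11 or 31 moved the gaps of the intercalated disc, insulin, spliceosome, structured RNA and Y-linked lists by less than 1.5 times.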

How the results depend on the processing

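The 1023 lower genes kept their number within 1.5 times except with no filter (1648) and with a mean of at least 50 (551), which change how many genes are tested. The 20 higher genes were 7 with a pseudocount of 5, 204 with no filter, 5 with a mean of at least 50, 122 with quantile scaling, 37 when the call was a log2 difference of at least 1 over both strains with both number 15 libraries above the other 4, and 138 at a log2 difference of 0.58. Leaving out 1 library gave 21 to 251 higher and 895 to 1469 lower genes. Without WT 15 the rule rests on UtyGT alone (115 higher, 1175 lower), and without UtyGT 15 on WT alone (251 higher, 1469 lower). The interaction gave 0 genes, 1302 with no filter, 3 with DESeq2 and 0 to 4 when 1 library of number 11 or 31 was left out, with the 4 (Ddx3y, Pdk4, Iigp1 and Bmp10) found without UtyGT 11. The cause was not tested. With the replicate block, at 1 residual degree of freedom, it gave 0 genes and changed no call. A block could not be fitted for number 15 against the others, since the number is the contrast, and the interaction could not be fitted without a number 15 library. Against number 11 or 31 alone it had no residual degrees of freedom. No named gene past the rule changed direction, while the list medians of endothelium, pericytes and sarcomere, all near 0, moved to −0.00, 0.10 and −0.00 with quantile scaling. Depth limits the lowest values, since 304 genes in UtyGT 15 had at most 3 reads.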
